A study of Danio rerio with 6 samples.

Results

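The genes described here are *vox*, *vent*, *ved*, *szl*, *eve1*, *cdx4*, *gata2a*, *tfap2a*, *tp63* and *foxi1*, the transcription factors and the feedback inhibitor by which the ventral side of the early zebrafish embryo is usually recognised. They were taken by symbol from the gene counts, 10 of 32057 genes, and *gata2a* was taken under the name GATA2, since the name table gives that identifier without its paralog suffix. All 10 had reads in every library and all 10 passed the filter on low counts. RNA-seq was performed at the shield stage, 6 hours after fertilization, on embryos of the AB/TL strain that had been injected into the yolk at the one-cell stage. Of the 6 libraries, 3 came from embryos given mRNA of wild-type zebrafish Mcpip1, an endoribonuclease encoded by *zc3h12a* (Mcpip1 WT), and 3 from embryos given the same mRNA with a substitution in the catalytic site (Mcpip1 DN). Both mRNAs also encoded mTurquoise after a self-cleaving P2A peptide, so all embryos compared here carried injected *zc3h12a* mRNA and the fluorescent protein. Each library was a pool of about 10 whole embryos that were alive at collection, and no uninjected or mTurquoise-only library was analysed here. In such pools, fewer ventral cells and less RNA per ventral cell cannot be told apart.

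In the gastrula, Bmp ligands signal through type I and type II receptors and Smad proteins on the ventral side, while Chordin and other antagonists from the dorsal organizer block them. The homeodomain repressors Vox, Vent and Ved are switched on ventrally and keep organizer genes such as *gsc* and *chrd* off, and Sizzled, encoded by *szl*, slows the proteases that cleave Chordin and so acts as a negative feedback on Bmp signaling. Further out in the response, *eve1* and *cdx4* mark ventral and posterior mesoderm, and *gata2a*, *tfap2a*, *tp63* and *foxi1* mark the ventral ectoderm that gives rise to epidermis and placodes.

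The libraries held between 22581287 and 24662219 gene counts in Mcpip1 WT and between 17686041 and 23944732 in Mcpip1 DN. The injected gene *zc3h12a* (ENSDARG00000005271) had normalized counts of 170239, 22302 and 22767 in the Mcpip1 WT libraries, given here and throughout in the order of replicates 1, 2 and 3, and of 36491, 16111 and 7907 in the Mcpip1 DN libraries, so that only Mcpip1 WT replicate 1 stood above all Mcpip1 DN libraries. Normalized counts are counts brought to a common library size, the mean of the TMM-scaled totals. Mcpip1 WT replicate 2 and Mcpip1 DN replicate 1 lay together at one end of the first principal component (35.9% of the variance). The fold changes of *cdx4*, *foxi1* and *gata2a*, the adjusted p of *id1* and the numbers of genes past the threshold are also given without them. The courses of genes over the libraries and the ratios of genes are given only with them. Mcpip1 WT replicate 1, the library with the most *zc3h12a*, stood alone on the second component (22.7%), at -102.1 against 0.40 to 60.3 in the others. Genes of other parts of the embryo were present in every library. The dorsal organizer gene *gsc* had between 781 and 1945 normalized counts in Mcpip1 WT and between 1024 and 2272 in Mcpip1 DN, and the enveloping layer keratin *krt4* had between 36671 and 65214 in Mcpip1 WT and between 49703 and 75854 in Mcpip1 DN.

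None of the 10 ventral genes passed the threshold used by the study, a fold change over 1.5 at a p value under 0.05 before adjustment, when Mcpip1 WT was set against Mcpip1 DN in edgeR's quasi-likelihood test. Their fold changes were spread on both sides of zero, with 5 genes above it and 5 below. The median log2 fold change was -0.02, against 0.01 over all 16126 genes tested. Across all genes, 0.874% were past the threshold as higher and 1.27% as lower in Mcpip1 WT, so a list of 10 genes with none called lay near this background. The Benjamini-Hochberg adjusted p in edgeR's test was 1.00 for each of the 10 genes, and no gene of the whole table had an adjusted p under 0.05 in this fit, while 356 had a p under 0.05 before adjustment. DESeq2's Wald test, run on these genes, gave an adjusted p under 0.05 for 1 gene of the table and a p under 0.05 before adjustment for 436. In what follows, p is the value before adjustment.

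**Figure D1:**
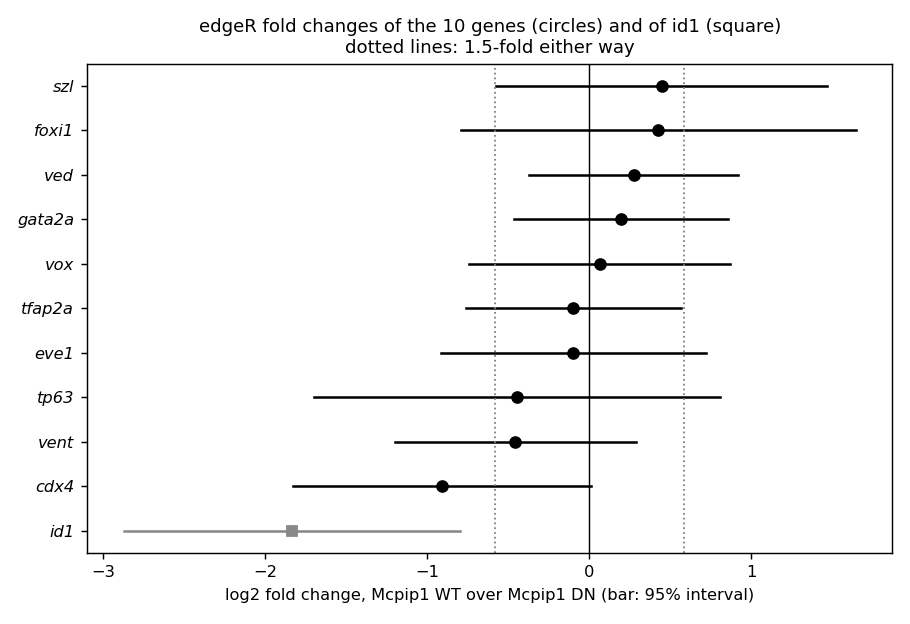
The horizontal axis is the log2 fold change of Mcpip1 WT over Mcpip1 DN, points are edgeR estimates from 3 libraries a group, bars are 95% intervals, and the dotted lines mark 1.5-fold either way. The circles of the 10 ventral genes run between 0.45 for *szl* and -0.91 for *cdx4*, with intervals that all include zero, and the square of *id1*, shown for comparison, lies at -1.84.

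The transcriptional repressors *vox*, *vent* and *ved* were the genes of the group that act most directly against the organizer. *Vox* (ENSDARG00000099761) had normalized counts of 7632, 11031 and 5198 in Mcpip1 WT, against 11086, 4435 and 7310 in Mcpip1 DN. The highest and the lowest library were both Mcpip1 DN libraries, and the groups overlapped over nearly their whole range. With a log2 fold change of 0.06 (standard error 0.37, edgeR p of 0.865), *vox* was close to level, and the 95% interval of -0.74 to 0.87 ran from 0.597-fold to 1.83-fold. The sign turned when a single library was left out, to -0.24 for Mcpip1 WT replicate 2 and to -0.23 for Mcpip1 DN replicate 2.

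*Vent* (ENSDARG00000100483), which is closely related to *vox*, had normalized counts of 813, 976 and 488 in Mcpip1 WT and of 1357, 914 and 856 in Mcpip1 DN. Mcpip1 WT replicates 1 and 3 lay below all Mcpip1 DN libraries, and Mcpip1 WT replicate 2 lay within them. The difference, a log2 fold change of -0.46 (standard error 0.34, 95% interval -1.20 to 0.29), had an edgeR p of 0.203. It remained negative in the fits that each left out 1 library, between -0.68 and -0.22.

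*Ved* (ENSDARG00000102389) had normalized counts of 27261, 28371 and 17244 in Mcpip1 WT and of 24753, 17784 and 17741 in Mcpip1 DN. Here Mcpip1 WT replicates 1 and 2 were above all Mcpip1 DN libraries, and Mcpip1 WT replicate 3 was below them. Its log2 fold change of 0.27 (standard error 0.29, 95% interval -0.37 to 0.92) had an edgeR p of 0.371. Among the 10 genes *ved* varied least, with the highest library at 1.65 times the lowest.

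**Figure D2:**
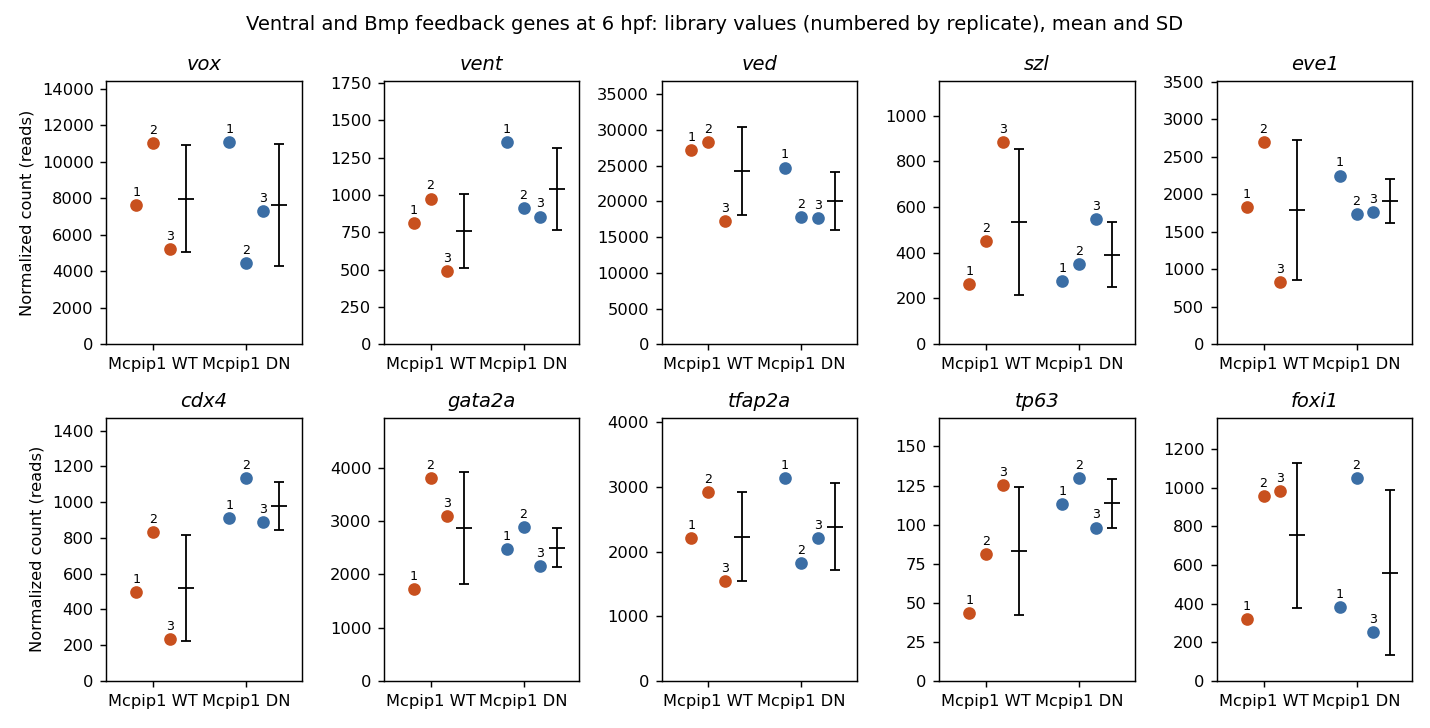
Each panel plots 1 gene, with the normalized count in reads on the vertical axis, starting at 0, and a numbered point for each replicate of Mcpip1 WT (left) and Mcpip1 DN (right). The line and bars beside each group give its mean and SD (n = 3), and *cdx4* is the panel in which the points of the groups do not overlap.

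The feedback inhibitor *szl* (ENSDARG00000099637) had normalized counts of 265, 452 and 885 in Mcpip1 WT, against 275, 352 and 548 in Mcpip1 DN. Both the lowest and the highest library were Mcpip1 WT libraries, so the groups overlapped, with a mean of 534 ± 318 in Mcpip1 WT, against 392 ± 141 in Mcpip1 DN (SD, n = 3 each). For *szl* the log2 fold change was 0.45 (standard error 0.46, 95% interval -0.57 to 1.46) at an edgeR p of 0.356, and it was -0.12 without Mcpip1 WT replicate 3. *Chrd*, the Bmp antagonist whose cleavage Sizzled slows, had normalized counts of 10739, 10789 and 4280 in Mcpip1 WT and of 10785, 7542 and 4096 in Mcpip1 DN. In both groups replicate 3 had the lowest *chrd* and the highest *szl*. The ratio of *szl* to *chrd* within a library was 0.0246, 0.0419 and 0.207 in Mcpip1 WT, against 0.0255, 0.0466 and 0.134 in Mcpip1 DN, a spread within each group that was far larger than the difference between the groups.

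Of the genes of ventral and posterior mesoderm, *cdx4* (ENSDARG00000036292), a caudal-type homeobox gene, came closest to the threshold. It had normalized counts of 496, 830 and 235 in Mcpip1 WT and of 910, 1132 and 890 in Mcpip1 DN. All 3 Mcpip1 WT libraries were below all 3 Mcpip1 DN libraries, by the widest margin in Mcpip1 WT replicate 3 and by a small one in Mcpip1 WT replicate 2. The mean was 520 ± 299 in Mcpip1 WT, against 978 ± 135 in Mcpip1 DN (SD, n = 3 each), and the log2 fold change was -0.91 (standard error 0.42, 95% interval -1.83 to 0.01). The p value was 0.0517 in edgeR's test, just short of the threshold, and 0.1 in an exact 2-sided permutation test over the 6 libraries, the smallest p that 3 against 3 can give. Of the 10 genes, 1 had all Mcpip1 WT libraries below all Mcpip1 DN libraries and 0 had them all above, where 4.08% and 3.97% of all genes did so.

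Whether *cdx4* was past the threshold depended on the test. In DESeq2's Wald test, the tool named by the study, its log2 fold change was -0.91 with a p value of 0.0381, and it was then counted as lower in Mcpip1 WT along with 1.5% of all genes. Without Mcpip1 WT replicate 2 the log2 fold change was -1.42 (edgeR p of 0.00462), and without Mcpip1 WT replicate 3 it was -0.55 (edgeR p of 0.149), whereas its sign was the same in all 14 alternatives tried. Without both libraries that lay apart, Mcpip1 WT replicate 2 and Mcpip1 DN replicate 1, it was -1.47 (edgeR p of 0.00348). Mcpip1 WT replicate 3, the lowest library for *cdx4*, also had the lowest summed level of blastoderm margin markers and the highest summed level of maternal markers. The low sum was not particular to the margin. Dorsal organizer genes (9295), enveloping layer (138998) and yolk syncytial layer markers (3078) and qRT-PCR reference genes (262663) also had their lowest sums there. The sum of the Bmp antagonists and extracellular modulators was lowest in Mcpip1 DN replicate 3 (7147, against 7429 in Mcpip1 WT replicate 3). Not all maternal markers were highest in Mcpip1 WT replicate 3, and *zp2.1* and *ddx4* were lowest in it. The part of these markers in the difference in *cdx4* was not tested.

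*Eve1* (ENSDARG00000056012), an even-skipped homeobox gene of the ventral margin, had normalized counts of 1826, 2701 and 832 in Mcpip1 WT and of 2250, 1732 and 1758 in Mcpip1 DN. The Mcpip1 WT libraries included both the highest and the lowest value, and the Mcpip1 DN libraries lay close together between them. *Eve1* was close to level between the groups, at a log2 fold change of -0.10 (standard error 0.37, 95% interval -0.92 to 0.72). Leaving out Mcpip1 WT replicate 3 turned it to 0.24, and leaving out Mcpip1 DN replicate 1 to 0.03.

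The 4 genes of the ventral ectoderm did not move together. *Gata2a* (ENSDARG00000059327), a zinc-finger factor of ventral ectoderm and later of blood, had normalized counts of 1727, 3800 and 3086 in Mcpip1 WT and of 2468, 2888 and 2155 in Mcpip1 DN. The Mcpip1 WT libraries lay on both sides of the Mcpip1 DN libraries. Between the groups the log2 fold change was 0.20 (standard error 0.30, 95% interval -0.46 to 0.86), and without Mcpip1 WT replicate 2 it was -0.055.

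*Tfap2a* (ENSDARG00000059279), the AP-2 factor of non-neural ectoderm and neural crest, had normalized counts of 2217, 2929 and 1546 in Mcpip1 WT and of 3133, 1824 and 2206 in Mcpip1 DN. The groups overlapped, with the highest library in Mcpip1 DN and the lowest in Mcpip1 WT. Its log2 fold change of -0.10 (standard error 0.30, 95% interval -0.76 to 0.57) turned to 0.10 when Mcpip1 WT replicate 3 was left out and to 0.15 when Mcpip1 DN replicate 1 was.

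*Tp63* (ENSDARG00000044356), which is needed for the epidermis, had the fewest reads of the group, with normalized counts of 43.6, 80.9 and 125.5 in Mcpip1 WT and of 112.9, 129.5 and 98.1 in Mcpip1 DN. Mcpip1 WT replicates 1 and 2 were below all Mcpip1 DN libraries, and Mcpip1 WT replicate 3 was within them. For *tp63* the log2 fold change was -0.44 with a standard error of 0.57, the largest of the group, and a 95% interval of -1.70 to 0.81. Its isoforms could not be separated in counts per gene.

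*Foxi1* (ENSDARG00000104566), a forkhead factor of the placodal ectoderm, had normalized counts of 318, 954 and 984 in Mcpip1 WT and of 380, 1047 and 251 in Mcpip1 DN. In each group the libraries fell far apart, with Mcpip1 WT replicates 2 and 3 and Mcpip1 DN replicate 2 high and the others low. Its log2 fold change of 0.43 (standard error 0.55, 95% interval -0.79 to 1.65) had an edgeR p of 0.458. This value moved with the libraries included. Without Mcpip1 DN replicate 2 it was 1.24 (edgeR p of 0.0437), past the threshold as higher in Mcpip1 WT, whereas it was 0.081 without Mcpip1 DN replicate 3 (edgeR p of 0.886) and 0.0052 without Mcpip1 WT replicate 2 and Mcpip1 DN replicate 1 (edgeR p of 0.993).

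The spread between libraries limited what could be seen. In 9 of the 10 genes the highest library had more than 2 times the normalized count of the lowest, up to 4.17 times in *foxi1* and 4.83 times in *cdx4*. The residual SD of log2 CPM, the depth-scaled count on a log scale, within groups had a median of 0.575 over the 10 genes and of 0.566 over all genes tested, which include many genes with few reads. Compared with genes of a like level, within 0.5 of their mean log2 CPM, most of the 10 genes varied more than the median gene. *Foxi1* was at the percentile 94.6 of this SD, *vox* at 92.4, *eve1* at 90.7, *cdx4* at 82.2, *szl* at 79.3, *gata2a* at 73.5, *tfap2a* at 72 and *vent* at 61.9, whereas *ved* was at 27.7 and *tp63* at 26.9. The 95% interval lay within 2-fold either way for 5 genes, *vox*, *ved*, *eve1*, *gata2a* and *tfap2a*, and within 1.5-fold for 0, so a change of 1.5-fold in at least 1 direction lay within the interval of every gene.

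Several of the genes were high or low in the same libraries, and these libraries came from both groups. The mean deviation of *vox*, *vent* and *ved* from their averages over the 6 libraries, in log2 CPM, was 0.10, 0.38 and -0.55 in the Mcpip1 WT libraries, against 0.48, -0.31 and -0.10 in those of Mcpip1 DN. Mcpip1 WT replicate 2 and Mcpip1 DN replicate 1 were thus the high libraries and Mcpip1 WT replicate 3 the low one. *Eve1* and *tfap2a* had their highest values in the same pair of libraries and their lowest in Mcpip1 WT replicate 3. *Szl* went the other way in Mcpip1 WT replicate 3, its highest library, and in Mcpip1 DN replicate 1 (-0.61), but was above its mean in Mcpip1 WT replicate 2 (0.10). *Gata2a*, *tp63* and *foxi1* followed neither course and had in common that Mcpip1 WT replicate 1 was low, at -0.59, -1.06 and -0.80 of log2 CPM from their means. *Szl* and *cdx4* were also low in this library, at -0.67 and -0.43. Without Mcpip1 WT replicate 1, which also stood apart on the second component, the log2 fold changes of *gata2a*, *tp63* and *foxi1* were 0.46, -0.13 and 0.79. The part of this library in the values of these genes was not tested further.

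**Figure D3:**
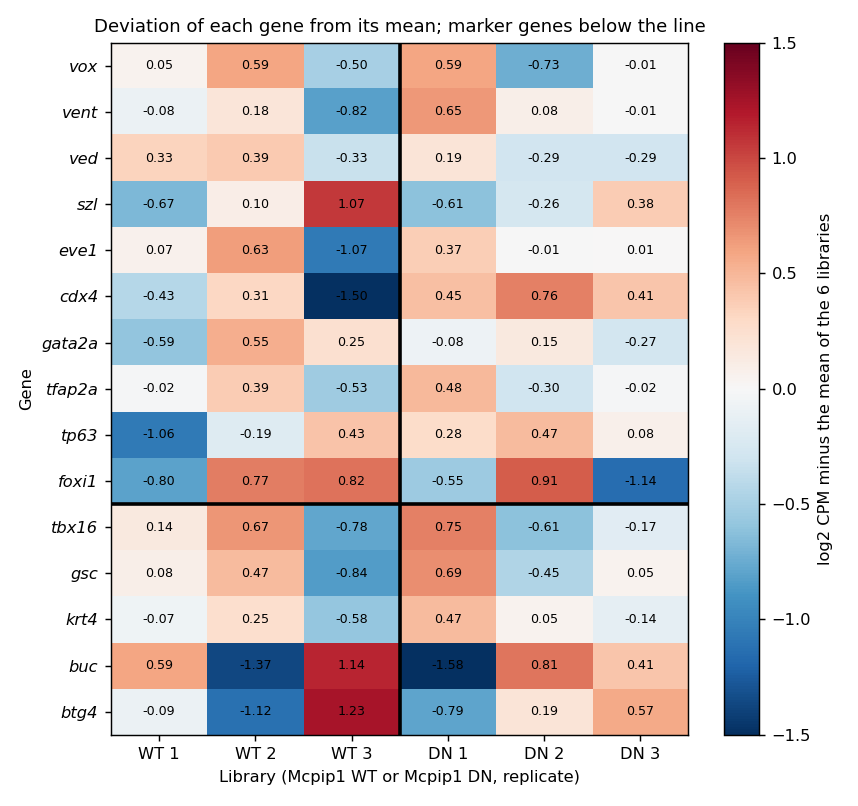
Rows are genes and columns are libraries, Mcpip1 WT left and Mcpip1 DN right of the thick line, and each cell gives log2 CPM minus the mean of the 6 libraries (red above, blue below). The genes under the line are markers outside the group. *Tbx16*, *gsc* and *krt4* are above their means in Mcpip1 WT replicate 2 and Mcpip1 DN replicate 1 like *vox* and *vent*, and *buc* and *btg4* are below theirs in these libraries.

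Several marker genes of other parts of the embryo moved with the same libraries. *Tbx16*, a T-box gene of the whole blastoderm margin, had normalized counts of 34956, 50300 and 18412 in Mcpip1 WT and of 53349, 20755 and 28159 in Mcpip1 DN. Of 8 blastoderm margin markers, 7 were measured, and they summed to between 25417 and 75701 normalized counts in Mcpip1 WT and between 32531 and 76818 in Mcpip1 DN, with *tbxtb* at 0 in Mcpip1 WT replicate 1. The 10 maternal and egg markers, all measured, summed to 63950, 49703 and 81135 in Mcpip1 WT and to 45027, 53187 and 54380 in Mcpip1 DN. This sum was highest in Mcpip1 WT replicate 3, where the margin sum was lowest. Not all margin markers were lowest there. *Mixl1* and *ndr1* were lowest in Mcpip1 DN replicate 2 and *tbxtb* in Mcpip1 WT replicate 1. *Buc*, a germ plasm gene, had 10864 in Mcpip1 WT replicate 3 and 1643 in Mcpip1 DN replicate 1. *Btg4*, *cldnd*, *h1m* and *dazl* were also highest in Mcpip1 WT replicate 3. In contrast, *zp2.1* and *ddx4* were lowest there and highest in Mcpip1 DN replicate 1. *Nanos3* was highest in Mcpip1 DN replicate 1, *zar1* in Mcpip1 WT replicate 2 and *zp3* in Mcpip1 WT replicate 1. The 9 enveloping layer markers summed to between 138998 and 261331 in Mcpip1 WT and between 191546 and 303271 in Mcpip1 DN. Of 6 yolk syncytial layer markers, 5 were measured and summed to between 3078 and 7539 in Mcpip1 WT and between 3759 and 6922 in Mcpip1 DN, with *apoa2* at 0 in 4 libraries. The sums of the groups overlapped in all of these lists, 0 genes of them passed the threshold, and their part in the values of the ventral genes was not tested.

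Among the margin genes the smallest p was 0.297, for *ndr2*, a Nodal ligand of the margin, at a log2 fold change of 0.52. Among the maternal genes it was 0.0968 for *cldnd*, at 0.67, and the most abundant, *h1m*, a linker histone of the egg, was at 0.48 (edgeR p of 0.111) with all Mcpip1 WT libraries above all Mcpip1 DN libraries. In the enveloping layer it was 0.303 for the claudin *cldnf*, at -0.38, and the most abundant gene, the keratin *krt8*, was at -0.18. In the yolk syncytial layer it was 0.117 for *mxtx2*, at 0.77, and the most abundant gene, *hnf4a*, was at -0.27. The 4 reference genes used for qRT-PCR had 0 past the threshold and a median of 0.10, with the smallest p, 0.387, for *actb2*, at -0.29, and *eef1a1l1*, the most abundant, at 0.08.

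Genes outside the group followed the course of *vox*, *vent* and *ved* over the libraries closely. Among 5017 genes with a mean log2 CPM of at least 5, the highest Pearson r with the mean deviation of these repressors was 0.996 for RNF10, followed by 0.995 for si:dkeyp-121d4.3, 0.994 for *tbx16*, 0.986 for CEBPB and 0.986 for *pagr1*. These values describe 6 libraries only, and 180 genes had an r over 0.9. None of the 5 genes passed the threshold between Mcpip1 WT and Mcpip1 DN, with log2 fold changes between -0.12 for CEBPB and 0.02 for *tbx16*.

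A ratio of 2 genes within a library does not depend on depth or scaling, and several ratios were tighter than the genes themselves. The ratios described here were chosen after the values were seen. In an exact 2-sided permutation test, each pair of the 10 genes without overlap had a p of 0.1, the smallest that 3 against 3 can give, so none could pass 0.05. *Ved* had 33.5, 29.1 and 35.3 reads per read of *vent* in Mcpip1 WT, against 18.2, 19.5 and 20.7 in Mcpip1 DN. The groups were well apart, a 1.67-fold higher ratio in Mcpip1 WT, while within a group the highest ratio was 1.22 times the lowest in Mcpip1 WT, against 1.14 times in Mcpip1 DN. The ratio of *vox* to *vent* was also higher in every Mcpip1 WT library, at 9.39, 11.3 and 10.7, than in Mcpip1 DN, at 8.17, 4.85 and 8.54. The ratio of *ved* to *vox* overlapped, at 3.57, 2.57 and 3.32 in Mcpip1 WT, against 2.23, 4.01 and 2.43 in Mcpip1 DN (exact permutation p of 0.7).

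*Cdx4* was lower in Mcpip1 WT, without overlap, relative to *vox*, *ved*, *eve1*, *gata2a* and *tfap2a*. Its ratios to *vent*, *szl*, *tp63* and *foxi1* overlapped. The counts of *cdx4* alone did not overlap between the groups, so its ratios are not independent of that difference. *Eve1* had 3.68, 3.25 and 3.55 reads per read of *cdx4* in Mcpip1 WT, against 2.47, 1.53 and 1.98 in Mcpip1 DN, a 1.78-fold higher ratio without overlap. Mcpip1 WT replicate 3, in which both genes were lowest, had nearly the same ratio as the other Mcpip1 WT libraries. The ratio of *gata2a* to *cdx4* was 3.48, 4.58 and 13.2 in Mcpip1 WT, against 2.71, 2.55 and 2.42 in Mcpip1 DN, also without overlap. Of the 45 pairs that the 10 genes form, 9 had ratios that did not overlap between the groups, and 8 of these included *vent* or *cdx4*, so they are not independent of each other. Over all pairs of genes tested, 8.03% did not overlap. The remaining pair was *gata2a* and *tp63*, with 39.6, 47.0 and 24.6 reads of *gata2a* per read of *tp63* in Mcpip1 WT, against 21.9, 22.3 and 22.0 in Mcpip1 DN.

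**Figure D4:**
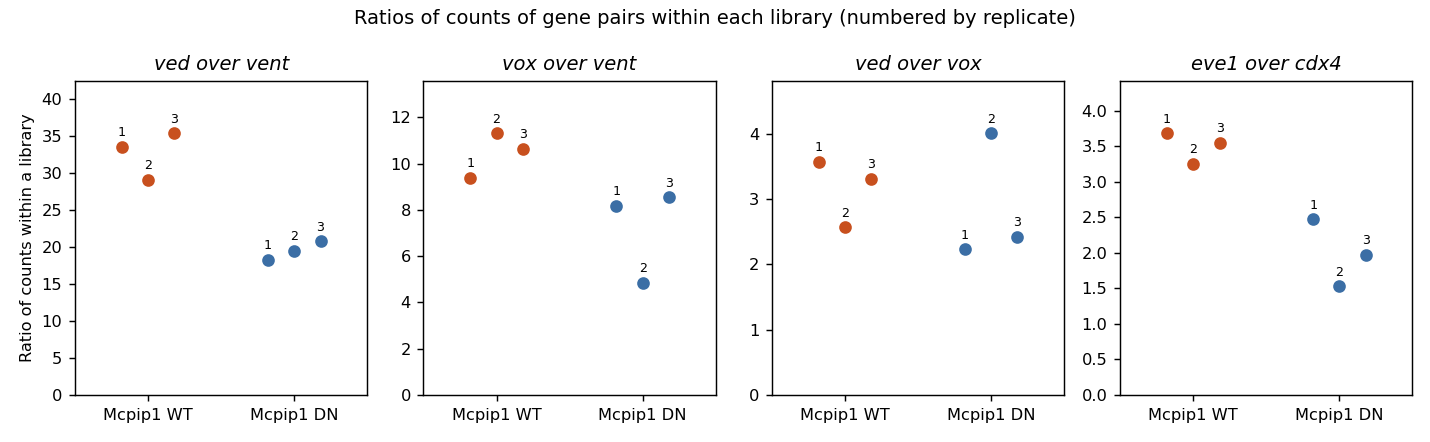
The vertical axis, from 0, is the ratio of the counts of a pair of genes within 1 library, and each numbered point is a replicate of Mcpip1 WT (left) or Mcpip1 DN (right). *Ved* over *vent* and *eve1* over *cdx4* have all Mcpip1 WT points above all Mcpip1 DN points, whereas *ved* over *vox* overlaps.

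The genes that the ventral repressors keep off were measured in the same embryos. For *gsc*, a homeobox gene of the organizer, the log2 fold change was -0.17 (edgeR p of 0.660) and for *chrd* it was 0.20 (edgeR p of 0.630). Of 13 dorsal organizer genes tested, 5 were above and 8 below zero and 0 passed the threshold in either direction, with a median of -0.17 and the smallest p, 0.270, for *lhx1a*. The ratio of *vox* to *gsc* was 5.14, 5.67 and 6.65 in Mcpip1 WT, against 4.88, 4.33 and 5.04 in Mcpip1 DN, so it was higher in every Mcpip1 WT library by a small margin. This pair was not among the pairs counted above, and 8.03% of all pairs of genes tested did not overlap. The ratio of *vox* to *chrd* overlapped, at 0.711, 1.02 and 1.22 in Mcpip1 WT, against 1.03, 0.588 and 1.78 in Mcpip1 DN.

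Other genes of ventral ectoderm and mesoderm were as mixed as the 10. Of 14 such genes, 9 were tested, 5 above and 4 below zero, 0 past the threshold, with a median log2 fold change of 0.02. The smallest p was 0.260, for *tfap2c*, an AP-2 gene related to *tfap2a*, at -0.33. *Krt4*, the most abundant of them, was at -0.24 (edgeR p of 0.468). *Krt4* and *grhl3* were also counted among the enveloping layer markers, so these lists share genes.

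Of 43 other genes of the Bmp pathway, its feedback and target genes included, 31 were tested, 13 above and 18 below zero. Past the threshold were 0 as higher and 2 as lower in Mcpip1 WT, against 0.874% and 1.27% of all genes tested. The median log2 fold change of these Bmp pathway genes was -0.10. Of the ligands tested, none passed the threshold. ENSDARG00000041430, of a pair listed as BMP2, was at 0.24 (standard error 0.31), *bmp4* at 0.02 (0.32), *bmp7a* at 0.07 (0.28), *admp* at 0.08 (0.47) and *gdf6a*, with few reads, at -0.03 (1.06). *Acvr1l*, a type I receptor and the most abundant gene among ligands and receptors, was at -0.39 (edgeR p of 0.144). *Smad5*, the main Bmp transducer at this stage and the most abundant gene of the transducers, had normalized counts of 11304, 14419 and 12080 in Mcpip1 WT and of 10885, 10079 and 8258 in Mcpip1 DN. These did not overlap, but the log2 fold change of 0.37 had an edgeR p of 0.159. Of the 14 transducers and feedback genes tested, 3 were above and 11 below zero, with a median of -0.51. Over all genes tested, 7939 of 16126 were below zero. Only 1 of the 14 had an edgeR p under 0.05, and some of those below zero had few reads. The lowest, ENSDARG00000099677, of a pair listed as BAMBI, was at -2.59 (edgeR p of 0.129), with 0 reads in Mcpip1 WT replicates 1 and 2. The antagonists and extracellular modulators had 3 above and 3 below zero and 0 past the threshold, with the smallest p, 0.248, for *bmper* at -0.53.

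The genes past the threshold were *id1* and ENSDARG00000019728. *Id1* (ENSDARG00000040764), an inhibitor of basic helix-loop-helix factors that Bmp signaling induces directly, had normalized counts of 1305, 4649 and 1409 in Mcpip1 WT and of 12149, 6681 and 7440 in Mcpip1 DN. All Mcpip1 WT libraries were below all Mcpip1 DN libraries, and the gene fell by 1.84 on the log2 scale (standard error 0.47), with an edgeR p of 0.00253 and, in this fit, an adjusted p of 1.00. ENSDARG00000019728, 1 of a pair listed as BMPR1A, a type I Bmp receptor, had normalized counts of 693, 1726 and 1373 in Mcpip1 WT and of 2648, 2386 and 2456 in Mcpip1 DN. It fell by 0.98 on the log2 scale (standard error 0.32), with an edgeR p of 0.0113, which adjustment also took to 1.00. Leaving out any 1 library kept both past the threshold. With edgeR on all genes with a count, the adjusted p of *id1* was 1.64e-05. It was 0.0266 without Mcpip1 WT replicate 2 and Mcpip1 DN replicate 1, a fit added after the data were seen. In each other alternative the adjusted p of *id1* was over 0.05, with 0.0501 when Mcpip1 WT replicate 2 alone was left out. DESeq2 gave 0.369 for the filtered genes and 0.667 when every gene with a count was used, and the replicate block gave 0.9997. *Cdx4*, at -0.91, was the ventral gene with the lowest fold change beside *id1* and ENSDARG00000019728. None of the other 9 ventral genes had groups that did not overlap.

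**Figure D5:**
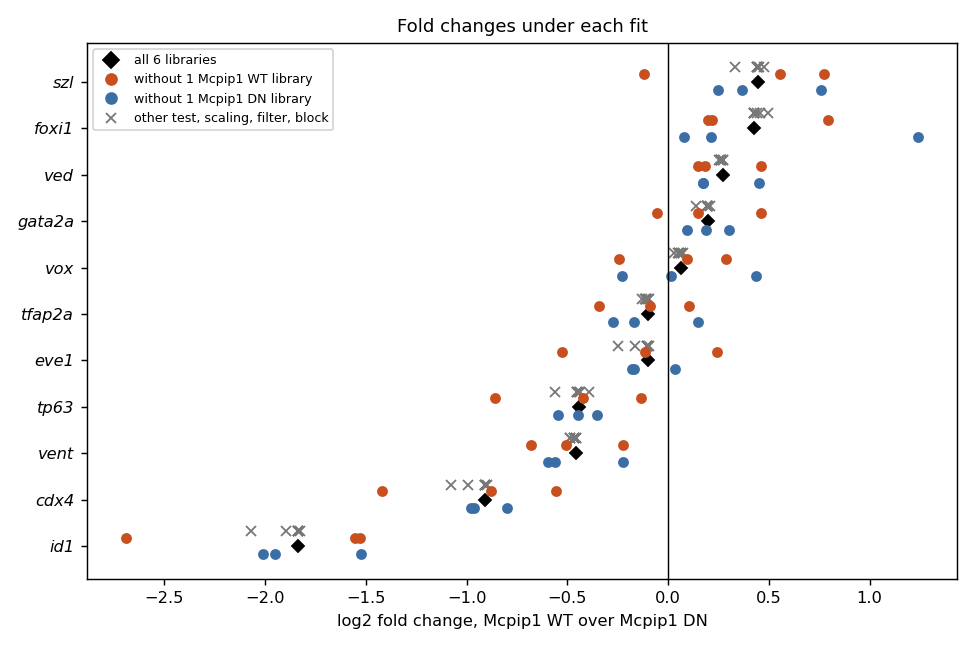
The horizontal axis is the log2 fold change of Mcpip1 WT over Mcpip1 DN and each row is a gene. Black diamonds are edgeR estimates from all 6 libraries, orange and blue points leave out 1 Mcpip1 WT or 1 Mcpip1 DN library, and grey crosses are other tests, scalings, filters and the block. Points of *vent*, *tp63*, *cdx4* and *id1* all lie below zero and those of *ved* and *foxi1* above, while *szl*, *gata2a*, *vox*, *tfap2a* and *eve1* have points on both sides.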

How the data were processed

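RNA was isolated from 3 Mcpip1 WT and 3 Mcpip1 DN pools and the poly(A) fraction was sequenced on the Ion Proton. The values deposited by the authors are raw counts, the number of reads assigned to each Ensembl gene, with no normalization. Per the submitters' processing notes, STAR 2.7.10a, Bowtie2 2.4.4, HTSeq and DESeq2 were used with GRCz11. The strand setting and the annotation release are not given in the sources used here, so overlapping and antisense genes and close paralogs are uncertain. The 5 rows of reads given to no gene held 16.5% to 26.1% of the counts of a library and were left out.

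The labels gave each library its group and replicate number. The name table gave a symbol for 28988 of 32057 identifiers, 9 of the 10 genes by exact symbol and 1 by its name without the paralog suffix. Where it gave both paralogs of a pair 1 name, both were counted and named by identifier. The higher of 2 identifiers listed as ZC3H12A was used. No sequence or coordinate was used.

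The fits used edgeR 4.0.16 (with limma 3.58.1) and, as an alternative, DESeq2 1.42.0, all under R 4.3.3. Genes were filtered with filterByExpr (minimum count 10), libraries were scaled by TMM, and groups were compared by glmQLFit and glmQLFTest on all 6 libraries without covariates, with Benjamini-Hochberg adjustment over all genes tested. The tests were checked on simulated counts. Log2 CPM had a prior count of 2. Standard errors were derived from the F statistic, and 95% intervals used the total degrees of freedom, 9.06 to 11.1. Permutation tests were exact over 20 divisions of the libraries and 2-sided. Nothing in the labels says more of how the pools were made, and p-values measure the spread between these pools.

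The 10 genes and all lists were chosen with earlier results of these data known. Named were the 10 genes, *zc3h12a*, genes of the other lists past the threshold, the gene of each list with the smallest p and that with the highest mean, and the 5 genes most like *vox*, *vent* and *ved*. *Tbxtb*, *apoa2*, *buc*, *btg4*, *gsc*, *grhl3*, ENSDARG00000041430, *bmp4*, *bmp7a*, *bmp7b*, *admp* and *gdf6a* were named beside them after their values were seen. So were *mixl1*, *ndr1*, ENSDARG00000099677, ENSDARG00000105045 and the maternal markers *dazl*, *zp2.1*, *nanos3*, *ddx4*, *zar1* and *zp3*. Alternatives were DESeq2 on the same and on all genes, its size factors, library sizes without *zc3h12a*, no TMM, no filter, the replicate number as a block, and each library left out. Leaving out both libraries that lay apart was added after seeing the data.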

Additional observations from a re-analysis of the deposited data

How the results depend on the processing

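Across 14 alternatives a gene, *vent*, *ved*, *tp63*, *foxi1* and *cdx4* kept their direction. With 1 library left out, log2 fold changes turned in *vox* (-0.24 when Mcpip1 WT replicate 2 and -0.23 when Mcpip1 DN replicate 2 was left out, within -0.24 to 0.44 over the 6 fits), *szl* (-0.12 when Mcpip1 WT replicate 3 was, within -0.12 to 0.77), *eve1* (0.24 when Mcpip1 WT replicate 3 and 0.03 when Mcpip1 DN replicate 1 was, within -0.52 to 0.24), *tfap2a* (0.10 and 0.15 for the same libraries, within -0.34 to 0.15) and *gata2a* (-0.055 when Mcpip1 WT replicate 2 was, within -0.055 to 0.46). *Gata2a* was at -0.067 when Mcpip1 WT replicate 2 and Mcpip1 DN replicate 1 were both left out. The number of the 10 genes past the threshold as lower was 0 with edgeR and 1, *cdx4*, with DESeq2 on the same genes or on all genes with a count, with edgeR without TMM (p of 0.0304), with edgeR on all genes with a count (0.0123), without Mcpip1 WT replicate 2 and Mcpip1 DN replicate 1 (0.00348), and between 0 and 1 with 1 library left out. As higher it was 0, and between 0 and 1, *foxi1*, with 1 library left out.

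Over all genes, 141 were past the threshold as higher and 204 as lower. DESeq2 on all genes with a count gave 296 and 328, edgeR on all genes with a count 336 and 432, leaving out Mcpip1 WT replicate 2 and Mcpip1 DN replicate 1 262 and 446, and an adjusted p under 0.05 gave 0 and 0 with the filtered genes of all 6 libraries. Genes with an adjusted p under 0.05 numbered 9 with edgeR on all genes with a count, 3 without Mcpip1 WT replicate 2 and Mcpip1 DN replicate 1, 1 with DESeq2 on the same genes and 0 in each other alternative, and none was 1 of the 10 ventral genes. With 1 library left out, the genes past the threshold, which uses p before adjustment, numbered between 69 and 291 as higher and between 75 and 512 as lower. Other Bmp pathway genes past the threshold as higher were 0, or 1, *bmp7b*, with edgeR on all genes with a count, and between 0 and 1 with 1 library left out. As lower they were 2, or 4 with edgeR on all genes with a count, 0 by adjusted p, and between 2 and 4 with 1 library left out. The cause of these differences was not tested. Where no filter was used, 24567 genes were tested in place of 16126. The edgeR fit itself also differed there, with a standard error of 0.31 for *id1* against 0.47 with the filter.

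Whether equal replicate numbers pair the libraries is not given in the labels, and 3 libraries a group are too few for the values to decide it. Deviations from the group means correlated at 0.0065, -0.083 and 0.30 between equal numbers, the last being the highest of any pair. Mcpip1 WT replicate 2 was nearest to Mcpip1 DN replicate 1 (0.29). With the replicate block *cdx4* was at -1.08 (edgeR p of 0.0168), as 1 of the 10 genes past the threshold, with 144 genes higher and 288 lower in all. The scalings moved the median of all genes by under 0.1 on the log2 scale. Of the 10 genes, *tp63*, with 43 to 152 counts a library, had the least precise fold change.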
